A study of Mus musculus with 23 samples.

Results

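Ibsp, Tnmd, Comp, Fmod, Mkx, Tnn, Epyc, Lrrc15, Itgbl1 and Mmp13 are 10 genes of bone, tendon and connective tissue matrix, out of 21264 genes in the deposited expression table. They were chosen by their measured values, since their mean level was highest in re-isolated Notch1 knockout cells. Their height in those cells is therefore a description and was not tested. All 10 were found in the table by symbol.

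Bulk RNA sequencing covered 23 mouse libraries of iPax3 cells, an embryonic stem cell-derived line in which Pax3 expression yields myogenic progenitors. Control cells are labelled WT. In N1OE cells NICD1, the signalling fragment that Notch1 releases when it is cut, is overexpressed, and in N1KO cells Notch1 is knocked out. Cultured progenitors gave 4 control and 3 N1OE libraries, and engrafted cells, re-isolated and labelled as satellite cells of donor origin (muscle stem cells), gave 9 control, 4 N1OE and 3 N1KO libraries. All of these groups share the iPax3 background, and no cultured N1KO library was analysed here. How Notch1 was disrupted, how many clones were used, and the host strain and age of the animals are not given in the sources used here. Neither is whether libraries of a group came from separate animals or cultures, so the p-values rest on a spread between libraries that may be technical. Cultured and re-isolated cells were extracted and made into libraries with different kits, so setting and kit cannot be told apart. The column headers of 5 re-isolated controls (replicates 1, 4, 7, 8 and 9) carry a GoF mark and those of the other 4 do not. The labels do not explain the mark, and the description of replicate 7 lacks it.

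Tendon cells build collagen fibrils under the transcription factors scleraxis and Mohawk, and mature tendon cells carry tenomodulin. Small leucine-rich proteoglycans such as fibromodulin and epiphycan set how collagen fibrils assemble, and bone cells secrete sialoproteins that bind mineral. In muscle, such genes are known mainly from connective tissue cells rather than from satellite cells, and Notch signalling is known to keep satellite cells quiescent.

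Reads in the listed genes numbered 11637817 to 29154176 per library, so 3 reads stood for 0.103 to 0.258 CPM (a gene's reads per 1000000 reads of its library). Notch1 itself stood at 15.6, 19.8 and 52.6 CPM in N1KO replicates 1 to 3, against 14.9 to 174 CPM (median 88.9) in the re-isolated controls. The N1KO range overlapped that of the marked controls (14.9 to 88.9 CPM) and lay below that of the unmarked controls (136 to 174 CPM). Against all 9 controls the difference was -1.57 ± 0.61 (log2, SE, limma adjusted p = 0.286). Marked minus unmarked controls was -1.85 ± 0.44 for Notch1 (limma adjusted p = 0.00978). Reads outside a deleted stretch would still be counted, so the N1KO level does not check the knockout label. Satellite cell markers (12 genes) summed to 1301 to 2496 CPM in N1KO and 1502 to 3038 CPM in controls. The N1KO median, 1324 CPM, lay below the lowest control. By limma 0 of 12 were called against all controls or marked controls, and 2 of 12 were lower against unmarked controls. Pax7 was present in every N1KO library (19.9, 33.4 and 153 CPM). The number of genes with 1 read, divided by the number with 2 reads, was 1.25 to 1.40 in N1KO and 1.08 to 1.502 in unmarked controls. In the marked set this ratio was 4.17 to 5.91 and in N1OE after re-isolation 4.18 to 6.82, and its part in the results was not tested.

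Each of the 10 genes had its highest group mean in N1KO cells, and for 7 of them all 3 N1KO libraries lay above all other 20 libraries. That holds for 1.17% of the 14155 genes tested in the re-isolated libraries, a share from which nothing is read, since the choice used these values. Fmod, Epyc and Mmp13 were the exceptions. In these bulk libraries, more cells that express a gene and more RNA of it per cell cannot be told apart.

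**Figure D1:**
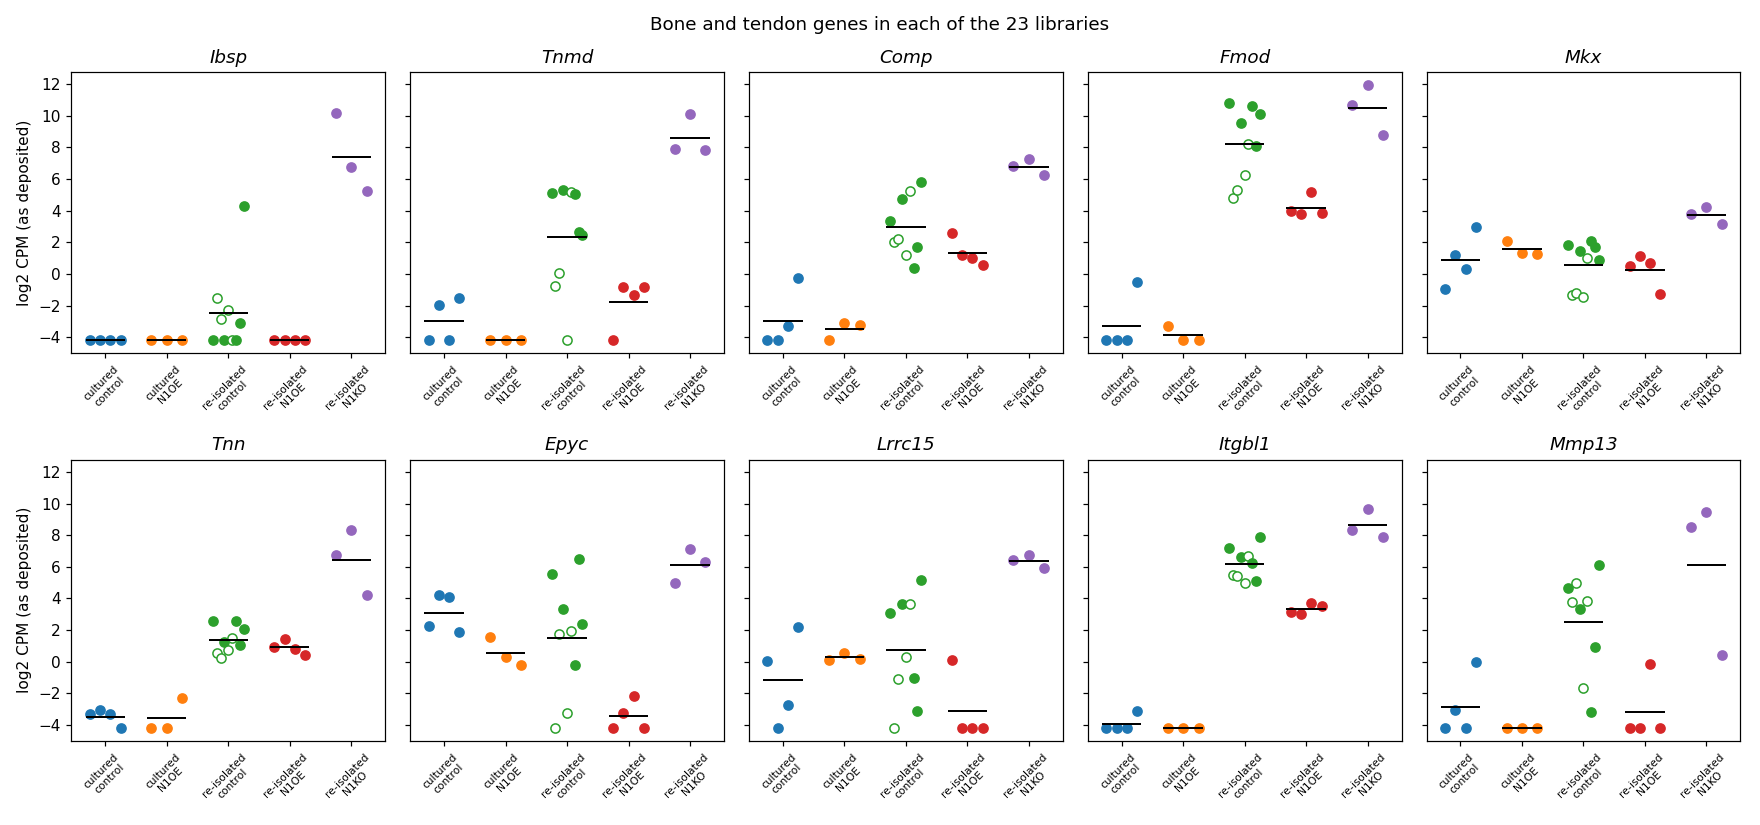
Deposited log2 CPM of each gene (vertical axis) in the 23 libraries by group (horizontal axis), in replicate order from left to right within a group, with black lines at the group means and open circles for the unmarked re-isolated controls. The lowest value, -4.19, stands for 0 reads. The 3 N1KO points lie above all others for 7 genes, whereas Mmp13 in N1KO replicate 3 lies among the controls.

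Tnmd encodes tenomodulin, a membrane glycoprotein of mature tenocytes. It stood at 239, 1123 and 229 CPM in N1KO replicates 1 to 3, at 0 to 38.8 CPM (median 6.12) in the 9 re-isolated controls, and at 0, 0.516, 0.344 and 0.519 CPM in re-isolated N1OE. N1KO libraries were all above the highest control, and N1KO replicate 2 stood far above the other two. Controls fell into high and low libraries, with 4 of 9 (replicates 1, 4, 6 and 7) between 33.6 and 38.8 CPM. In culture it was at 0, 0.196, 0 and 0.297 CPM in controls and at 0 in the 3 N1OE libraries. The fitted N1KO minus control difference was 6.31 on the log2 scale.

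Mkx encodes Mohawk, a homeobox factor that drives tendon differentiation, and lies on chromosome 18. It stood at 13.6, 18.9 and 8.86 CPM in N1KO, at 0.307 to 4.21 CPM (median 1.93) in the re-isolated controls, and at 1.37, 2.11, 1.55 and 0.363 CPM in re-isolated N1OE. The lowest N1KO library was above every other library, of which cultured control replicate 4 came nearest at 7.79 CPM. Mkx was the member with the lowest N1KO level per length (3.37 ± 1.23 CPM per kb of exon, SD, n = 3). It was also present in culture, at 0.460, 2.23, 1.21 and 7.79 CPM in controls and 4.11, 2.45 and 2.34 CPM in N1OE. Its N1KO minus control difference was 3.17 on the log2 scale.

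Fmod encodes fibromodulin, a collagen-binding proteoglycan of tendon, and had the highest N1KO mean per length (615 ± 550 CPM per kb, SD, n = 3). It stood at 1655, 4010 and 433 CPM in N1KO, at 27.9 to 1762 CPM (median 298) in the controls, and at 15.5, 13.7, 35.7 and 14.2 CPM in re-isolated N1OE. Here the N1KO and control ranges overlapped: 4 of the 9 controls, all of them marked (replicates 1, 4, 7 and 9), lay above N1KO replicate 3. N1KO minus control was 2.29 on the log2 scale, but 0.65 against marked controls and 4.32 against unmarked controls.

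Epyc encodes epiphycan, a related proteoglycan best known from growth plate cartilage. It stood at 31.3, 138 and 78.4 CPM in N1KO, at 0 to 89.0 CPM (median 3.86) in the controls, and at 0, 0.0516, 0.172 and 0 CPM in re-isolated N1OE, 3 reads in all. Control replicates 1 and 8, both marked, reached 46.8 and 89.0 CPM and lay above the lowest N1KO library. It was the only member for which replicate 1 was the lowest N1KO library. N1KO minus control was 4.60 on the log2 scale, with 2.63 against marked and 7.05 against unmarked controls.

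Comp encodes a pentameric thrombospondin of cartilage and tendon matrix. It stood at 112, 157 and 77.8 CPM in N1KO, at 1.23 to 56.3 CPM (median 4.51) in the controls, and at 5.97, 2.22, 1.98 and 1.40 CPM in re-isolated N1OE. N1KO and control libraries did not overlap, and control replicate 9 was the nearest control. Its N1KO spread was small beside its level (115 ± 39.5 CPM, SD, n = 3). The fitted difference from the controls was 3.84 on the log2 scale.

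Tnn encodes tenascin-N (tenascin-W), a matrix glycoprotein of bone and developing skeleton. It stood at 107, 326 and 18.9 CPM in N1KO, at 1.13 to 5.97 CPM (median 2.32) in the controls, and at 1.85, 2.68, 1.72 and 1.297 CPM in re-isolated N1OE. The 3 N1KO libraries spanned a wide range and still lay above every control. The log2 difference from the controls was 5.04.

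Ibsp encodes bone sialoprotein, a mineral-binding protein of osteoblasts and of hypertrophic chondrocytes. It stood at 1137, 111 and 37.6 CPM in N1KO, at 0 to 19.8 CPM (median 0.0606) in the controls, and at 0 CPM in all 4 re-isolated N1OE libraries. In the 7 cultured libraries it was also at 0 CPM. Control replicate 9 held nearly all the control reads, and N1KO replicate 1 was far above the other two, the only member for which it was the highest N1KO library. N1KO was at least 11140-fold higher than N1OE by reads pooled over each group, setting 3 reads over the N1OE group. Among the 14155 genes Ibsp had the largest fitted N1KO minus control difference (9.86 on the log2 scale), which is a description.

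Lrrc15 encodes a leucine-rich repeat membrane protein known from activated fibroblasts. It stood at 87.9, 105 and 61.0 CPM in N1KO, at 0 to 36.1 CPM (median 1.18) in the controls, and at 1.03, 0, 0 and 0 CPM in re-isolated N1OE. All 3 N1KO libraries were above all controls, and the spread among them was small (84.6 ± 22.2 CPM, SD, n = 3). The log2 difference from the controls was 5.65.

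Itgbl1 encodes a secreted protein that resembles the integrin beta chains. It stood at 327, 823 and 236 CPM in N1KO, at 31.2 to 236 CPM (median 76.6) in the controls, and at 8.88, 8.15, 12.8 and 11.5 CPM in re-isolated N1OE. The lowest N1KO library (235.7 CPM) and control replicate 9 (235.6 CPM) were level, so this gene's place among the 7 without overlap rests on a gap of under 1 CPM. Against the controls the N1KO libraries differed by 2.46 on the log2 scale.

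Mmp13 encodes collagenase 3, which cleaves fibrillar collagen and is made by hypertrophic chondrocytes and osteoblasts. It stood at 367, 701 and 1.29 CPM in N1KO, at 0.0533 to 68.7 CPM (median 13.6) in the controls, and at 0, 0, 0.859 and 0 CPM in re-isolated N1OE. N1KO replicates 1 and 2 were above every control, while 7 of the 9 controls lay above N1KO replicate 3. The mean (356 ± 350 CPM, SD, n = 3) therefore describes replicates 1 and 2 and not replicate 3. The log2 difference from the controls was 3.61, with 3.77 against marked and 3.40 against unmarked controls.

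Promoters were read for 8 of the 10 genes, from RefSeq windows of 300 bases (250 before the start site and 50 after) on GRCm38.p6. Short motifs were searched on both strands; the AP-1 letters read the same on either, and no match overlaps another in the stretches shown. The AP-1 letters TGANTCA occur in 7.81% of all 32851 windows and in those of Lrrc15 and Mmp13, the RUNX core TGTGGT in 16.8% and in those of Epyc and Mmp13, the RBPJ core TGGGAA in 25.6% and in Mmp13, and the TATA letters TATAAA in 13.6% and in Ibsp and Mmp13. The 250 bases before the start site are shown for the pair that shares the AP-1 letters, with all matches in capitals, Mmp13 at chr9:7272264-7272513 on the plus strand and Lrrc15 at chr16:30283255-30283504 on the minus strand.
Mmp13: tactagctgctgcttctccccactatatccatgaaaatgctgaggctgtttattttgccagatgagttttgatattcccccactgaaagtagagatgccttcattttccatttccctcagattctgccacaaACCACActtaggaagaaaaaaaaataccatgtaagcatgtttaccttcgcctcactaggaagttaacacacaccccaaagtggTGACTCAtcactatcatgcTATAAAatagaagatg
Lrrc15: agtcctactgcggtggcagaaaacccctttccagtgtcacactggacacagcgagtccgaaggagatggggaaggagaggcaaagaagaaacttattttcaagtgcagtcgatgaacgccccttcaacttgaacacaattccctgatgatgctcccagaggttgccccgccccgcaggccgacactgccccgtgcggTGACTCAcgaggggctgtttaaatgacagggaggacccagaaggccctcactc
A match is a description of these letters and not a binding site.

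N1KO replicate 2 had the highest value of the 3 N1KO libraries for 9 of the 10 genes, and replicate 3 the lowest for 9. Summed over the members, N1KO replicates 1, 2 and 3 held 4076, 7511 and 1182 CPM, and the sum in control replicates 1, 7 and 9 was also above replicate 3 (2044, 1670 and 1528 CPM). The median N1KO minus control difference over the 10 genes was 4.22 (log2), beside 0.01 over all 14155 genes, and the median N1KO minus N1OE difference was 7.80. These differences share the N1KO libraries and are given side by side only. Across the 13 re-isolated libraries without N1KO the median pairwise r between members was 0.526, and across all 16 it was 0.743. These libraries share a kit and differ in group and depth, so this is a description.

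Against re-isolated controls, N1OE cells showed lower Itgbl1 and Fmod, while the lower Mmp13 and Epyc are a description. No member was called higher. Those 4 of 10 genes passed adjusted p under 0.05 in limma, against 3.29% of the 14155 genes tested that were lower. This comparison shares its controls with the N1KO comparison, and Ibsp passed the filter of 1 CPM in 3 libraries only through N1KO. The fit also held the N1KO libraries. In a fit of controls and N1OE alone, Epyc was not called (limma adjusted p = 0.0589), while Itgbl1, Fmod and Mmp13 were (0.00089, 0.0146 and 0.0204). Epyc, Mmp13 and Tnmd reached 1 CPM in no N1OE library, and Lrrc15 in 1. They passed the filter through the other groups, where they are higher. Nothing is therefore read from the calls of Epyc and Mmp13 or from the count of 4. Itgbl1 and Fmod reached 1 CPM in every re-isolated control and N1OE library. Itgbl1 fell by 2.83 ± 0.46 on the log2 scale (SE, n = 4 and 9, limma adjusted p = 0.000709), its groups did not overlap, and its call held in every alternative run. Fmod fell by 4.01 ± 0.94 (adjusted p = 0.0127), lost only without N1OE replicate 2 (adjusted p = 0.0528). Mmp13 fell by 5.70 ± 1.62 (adjusted p = 0.0373) and Epyc by 4.97 ± 1.44 (adjusted p = 0.0402), from 3 reads in N1OE, which makes the control level 470 times the N1OE level by pooled reads (95% interval 161 to 2278, counting error only). Control replicates 1 and 8, both marked, held 1353 and 1468 of the 3299 control reads of Epyc. Pooled, its level was 29.9 CPM in marked and 1.79 CPM in unmarked controls. The last pair of calls was lost under limma-voom (adjusted p = 0.565 for Mmp13 and 0.421 for Epyc) and when single libraries were left out: for Epyc without any N1OE library (0.0704 to 0.108) or control 1, 3, 4, 6 or 9, and for Mmp13 without N1OE replicate 1, 2 or 4 (0.0991 to 0.122) or control 1, 2, 3, 6 or 9, with 0.0501 to 0.0596 for the controls. Between 1 and 5 members were called as single libraries were left out.

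Tnmd was at -4.10 (log2, adjusted p = 0.0752) and Lrrc15 at -3.83 (adjusted p = 0.105), neither called. Comp was at -1.62, Ibsp at -1.72, Tnn at -0.49 and Mkx at -0.29. Against marked controls alone 6 members were lower, Tnmd (-5.89, adjusted p = 1.74e-05) and Lrrc15 (-4.67, adjusted p = 0.0191) among them, beside 5.47% of genes lower. Against unmarked controls 3 were lower, Itgbl1, Fmod and Mmp13, beside 10.1% of genes. Epyc was then at -2.51 (adjusted p = 0.130), and Mkx turned to 1.02 and Tnn to 0.15, neither called. In both sets Mmp13, Epyc, Tnmd and Lrrc15 passed the filter through the groups other than N1OE. Nothing is therefore read from their calls or from the counts of 6 and 3.

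**Figure D2:**
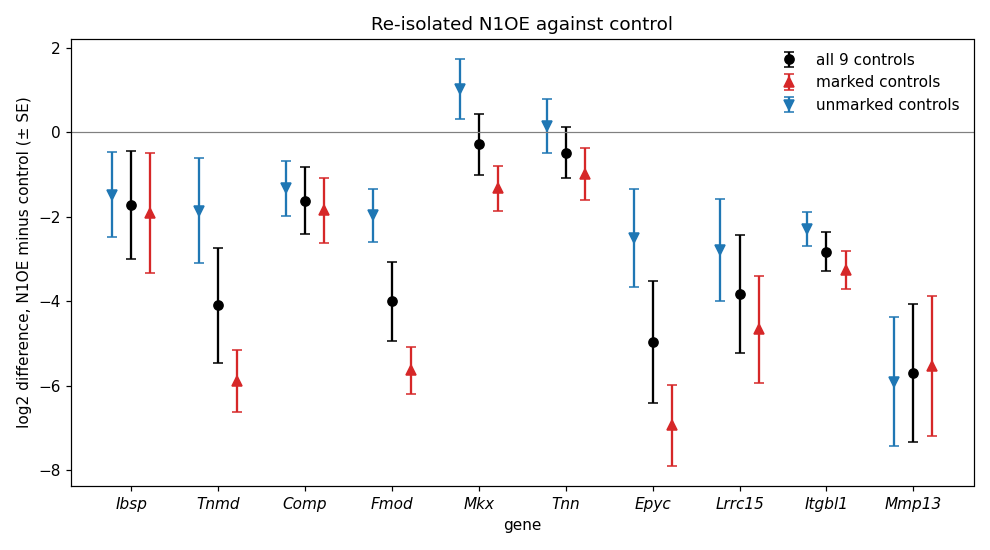
Log2 difference of re-isolated N1OE minus control (vertical axis, points with SE bars) for the 10 genes, against all 9 controls (black), marked controls (red) and unmarked controls (blue). Itgbl1 and Mmp13 differ little between the control sets, whereas Tnmd, Fmod and Epyc are lower against the marked set.

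The marked and unmarked controls differed in Fmod, while the differences of Mkx and Epyc are a description. Fmod was higher in marked controls (1084 ± 602 CPM, SD, n = 5) than in unmarked ones (111 ± 127 CPM, n = 4), by 3.67 ± 0.67 (log2, SE, limma adjusted p = 0.00268). Mkx was higher by 2.35 ± 0.62 (adjusted p = 0.0159) and Epyc by 4.43 ± 1.52 (adjusted p = 0.0469), the latter lost without control replicate 1, 2, 4, 5 or 8 (adjusted p = 0.0808, 0.152, 0.058, 0.131 and 0.101) and under limma-voom (0.271). Those 3 of the 9 tested stand beside 13.6% of genes called higher. Mkx and Epyc reached 1 CPM in only 1 and 2 unmarked controls and so passed the filter through the marked controls, where they are high. Nothing is therefore read from their adjusted p-values or from the count of 3. Tnmd was at 4.04 (adjusted p = 0.0518) and Mmp13 at -0.37 (adjusted p = 0.894). With sets taken from the descriptions, where replicate 7 changes sides, limma called 0 of 9 members (Fmod adjusted p = 0.261), with 2 at an unadjusted p under 0.05 and 0 by limma-voom.

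Re-isolated controls had higher Itgbl1, Fmod, Tnn, Comp, Mmp13 and Tnmd than cultured controls, 6 of the 9 tested beside 24.1% of genes called higher, and setting cannot be told apart from kit. All 6 were under 1 CPM in every cultured control and passed the filter only through the re-isolated controls where they are high. Nothing is therefore read from that count or from their calls. In culture these 6 were at or near 0: Itgbl1 had 1 read over the 4 controls, and Tnn 3. As a description, Itgbl1 was 10.11 ± 0.50 higher (log2, SE) and Fmod 11.46 ± 1.11 higher. Comp, Mmp13 and Tnmd lost their calls under limma-voom (adjusted p = 0.0577, 0.218 and 0.262). Mkx, Epyc and Lrrc15, which were present in culture, did not pass (-0.33, -1.57 and 1.90). For Epyc this depended on the control set: it was at 0.40 against marked controls (re-isolated minus cultured, adjusted p = 0.783) and at -4.02 in unmarked controls (log2, adjusted p = 0.0247). Epyc reached 1 CPM in 2 unmarked and all 4 cultured controls. It thus passed the filter of that fit through the cultured controls, where it is high, and nothing is read from that call. The median over all genes of this comparison was -0.23 (log2).

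In cultured progenitors, 0 of the 3 members that could be tested were called between N1OE and control, beside 10.8% of 12314 genes (limma; 1 at an unadjusted p under 0.05, and 0 by limma-voom). Epyc stood at 2.87, 1.20 and 0.813 CPM in N1OE and 4.73, 18.3, 16.7 and 3.57 CPM in controls, and those ranges did not overlap. Its difference was -2.54 ± 0.72 (log2, SE, limma adjusted p = 0.0631, unadjusted p = 0.00881). Mkx was at 0.66 and Lrrc15 at 1.46 (adjusted p = 0.625 and 0.513). In the test of whether the N1OE effect differed between re-isolated and cultured cells, limma called 0 of 10 members, beside 3.27% of 14509 genes (3 at an unadjusted p under 0.05, 0 by limma-voom). Itgbl1 came nearest, at -2.57 ± 0.74 (adjusted p = 0.0548).

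The other genes of these pathways were read from lists of 131 non-members, of which 116 were tested in N1KO against controls. Timp2, Dlx5, Col1a2 and Hapln1 were higher and no list gene was lower, 4 of 116 beside 0.466% of genes higher and 0.191% lower. Dlx5 and Hapln1 reached 1 CPM in no control or N1OE library and entered the fit only through the 3 N1KO libraries where they are high. Among the 107 list genes that pass the filter without N1KO, 2 were higher (Timp2 and Col1a2), beside 0.37% of 13772 such genes. Timp2, an inhibitor of metalloproteinases, stood at 595, 2475 and 844 CPM in N1KO against 147 to 457 CPM in controls (2.07 ± 0.37 on the log2 scale, SE, limma adjusted p = 0.0165). Col1a2, a type I collagen chain, stood at 8075, 10800 and 2426 CPM against 7.73 to 973 CPM (5.47 ± 1.16, adjusted p = 0.0356). Dlx5, a homeobox factor of osteoblasts, and Hapln1, a link protein of cartilage, differed by 4.75 ± 0.98 and 5.11 ± 1.08 (log2, SE). This is a description, since their place in the fit depended on N1KO, and nothing is read from their calls. The N1KO and control ranges of Timp2 and Col1a2 did not overlap. For Dlx5 and Hapln1 the lack of overlap follows from how they passed the filter.

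The number of called list genes was 0 without N1KO replicate 2, 1 without replicate 1, 7 without replicate 3, and 2 without control replicate 5. Timp2 lost its call without N1KO replicate 2 (limma adjusted p = 0.195), and Col1a2 without N1KO replicate 1 or 2 (0.127 and 0.246) or any N1OE library (0.0502 to 0.0533). Dlx5 lost it without control replicate 5 (0.0501) and Hapln1 without control replicate 2 or 5 (0.0534 and 0.0507). Without any 1 of the 3 N1KO libraries neither of that pair passed the filter, so neither was tested. By list, 2 of 18 tested osteoblast and mineralisation genes, 1 of 16 cartilage genes and 1 of 15 metalloproteinase genes and inhibitors were higher. None of 8 tendon and ligament genes, 15 small leucine-rich proteoglycans, 7 thrombospondins and tenascins, 16 activated fibroblast genes, 14 TGF-beta and BMP genes or 12 Notch targets passed in limma. At an unadjusted p under 0.05 there were 5, 10, 3, 4, 5 and 3 of them in that order, and limma-voom called 3, 3, 0, 0, 0 and 0. Medians were 2.13 for the tendon and ligament genes, 1.61 for the osteoblast genes and -0.83 for the Notch targets (log2). Named tendon genes that did not pass were Prg4, the lubricin of joints and tendon sheaths (3.06, adjusted p = 0.0607), Chad (5.49, adjusted p = 0.107), Thbs4 (3.72, adjusted p = 0.178) and Kera (5.22, adjusted p = 0.207). Among Notch targets Hey2 was at -2.43 (adjusted p = 0.0601) and Hes5 at -3.92 (adjusted p = 0.177).

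Of the remaining lists, cartilage genes beside Hapln1 included Acan, the aggrecan gene, at 5.56 (log2, adjusted p = 0.107), Matn4 at 2.47 (0.107) and Col11a1 at 1.70 (0.130). Alpl, the alkaline phosphatase of mineralising cells, was at 2.10 (adjusted p = 0.0676) and Omd, an osteoblast proteoglycan, at 2.37 (0.118). Among relatives of Fmod and Epyc, Aspn stood at 972, 2208 and 589 CPM in N1KO and 16.9 to 462 CPM in controls (3.06, adjusted p = 0.0722), with no overlap, while Optc was at -2.08 (0.0646). The thrombospondins, relatives of Comp, were at 2.37 for Thbs1 (adjusted p = 0.143), 2.52 for Thbs2 (0.231) and 0.57 for Thbs3 (0.815). The tenascins, relatives of Tnn, were at 0.53 for Tnc (adjusted p = 0.884), 0.45 for Tnr (0.935) and -0.21 for Tnxb (0.961). Mmp2, a gelatinase and relative of Mmp13, was at 2.12 (adjusted p = 0.130) and Mmp12, a macrophage elastase, at 4.65 (0.248). Of the activated fibroblast genes, to which Lrrc15 is known to belong, Cthrc1 was at 1.501 (adjusted p = 0.107), Postn at 1.95 (0.171) and Fap at 1.72 (0.193).

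Against marked controls alone 14 list genes were higher and 2 lower of 113, beside 2.59% and 1.33% of genes. Against unmarked controls 38 were higher and 10 lower of 112, beside 3.88% and 3.41%. Dlx5 and Hapln1 were among the higher genes in both sets and entered both fits only through N1KO. With unmarked controls 10 of 16 activated fibroblast genes and 5 of 8 tendon genes were higher, and 6 of 12 Notch targets lower. Kera, among those tendon genes, averaged 0.437 CPM in unmarked controls and 0 CPM in N1OE, and also entered through N1KO. How many list genes passed the filter without N1KO was not counted for either set. The counts are therefore a description, and nothing is read from them. The difference between the sets for N1KO itself was not tested.

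Of the markers of other cell types that a sort of muscle cells could hold, some were higher in the N1KO libraries and others were not. Pericyte and smooth muscle markers (0 of 7 called by limma) summed to 960 to 1306 CPM in N1KO and 975 to 3188 CPM in controls. Schwann and glial markers (0 of 5 called by limma) summed to 86.7 to 709 CPM and 37.0 to 279 CPM. Endothelial markers were higher in 5 of 8 tested genes by limma, beside 0.466% of the 14155 genes tested. Their sums were 67.9 to 185 CPM in N1KO, 9.32 to 49.2 CPM in controls and 57.5 to 122 CPM in re-isolated N1OE. Fibro-adipogenic markers (0 of 7 called by limma and limma-voom, 3 at an unadjusted p under 0.05) summed to 5023 to 14450 CPM in N1KO, 1713 to 10060 CPM in marked controls and 160 to 1055 CPM in unmarked controls. Tenocyte markers outside the members (Scx, Kera and Thbs4; 0 of 3 called by limma, 1 by limma-voom, 2 at an unadjusted p under 0.05) summed to 232 to 743 CPM in N1KO and 8.06 to 244 CPM in controls. Scx, the scleraxis gene, did not pass, at 6.81 CPM in N1KO and 5.61 CPM in controls on average. By limma 6 of 7 fibro-adipogenic, 2 of 3 tenocyte, 7 of 8 endothelial and 1 of 5 glial markers were higher against unmarked controls. For marked controls these were 0 of 7, 0 of 3, 6 of 8 and 1 of 5. Pericyte and smooth muscle markers were lower in 2 of 7 and 1 of 7. Beside these, 3.88% and 2.59% of genes were higher and 3.41% and 1.33% lower. Passing the filter without N1KO was not counted, so this is a description.

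Osteoblast markers outside the members summed to 101 to 159 CPM in N1KO and 78.4 to 272 CPM in controls (0 of 7 called by limma, 1 by limma-voom, 3 at an unadjusted p under 0.05), and they differed among themselves. Mean levels in N1KO and controls were 3.94 and 0.671 CPM for Sp7, the osterix gene, 0.603 and 0.0519 CPM for Bglap, the osteocalcin gene, and 46.4 and 11.5 CPM for Alpl. For Dmp1, a matrix protein gene of osteocytes that makes up much of the control sum, they were 38.8 and 118 CPM (-2.19 on the log2 scale, limma adjusted p = 0.150). In re-isolated N1OE, where Ibsp was at 0, the same markers summed to 997 to 1886 CPM, most of it Dmp1. Ctsk, the osteoclast protease, was higher (4.02 on the log2 scale, adjusted p = 0.0172), while Acp5, another osteoclast gene, averaged 13.7 CPM in N1KO and 17.9 CPM in controls. Fabp4, a fatty acid carrier of fat and capillary cells, was higher (4.63, adjusted p = 0.00573), with Adipoq and Plin1, which mark adipocytes, at 0 in all 3 N1KO libraries. Macrophage markers (193 to 669 CPM, median 663) were within the range of all controls, 51.9 to 725 CPM. That range was 87.6 to 725 CPM in marked and 51.9 to 196 CPM in unmarked controls. By limma 0 of 9 were called against marked controls and 4 of 9 were higher against unmarked ones, a description. The part of any of these cell types in the members' levels was not tested.

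**Figure D3:**
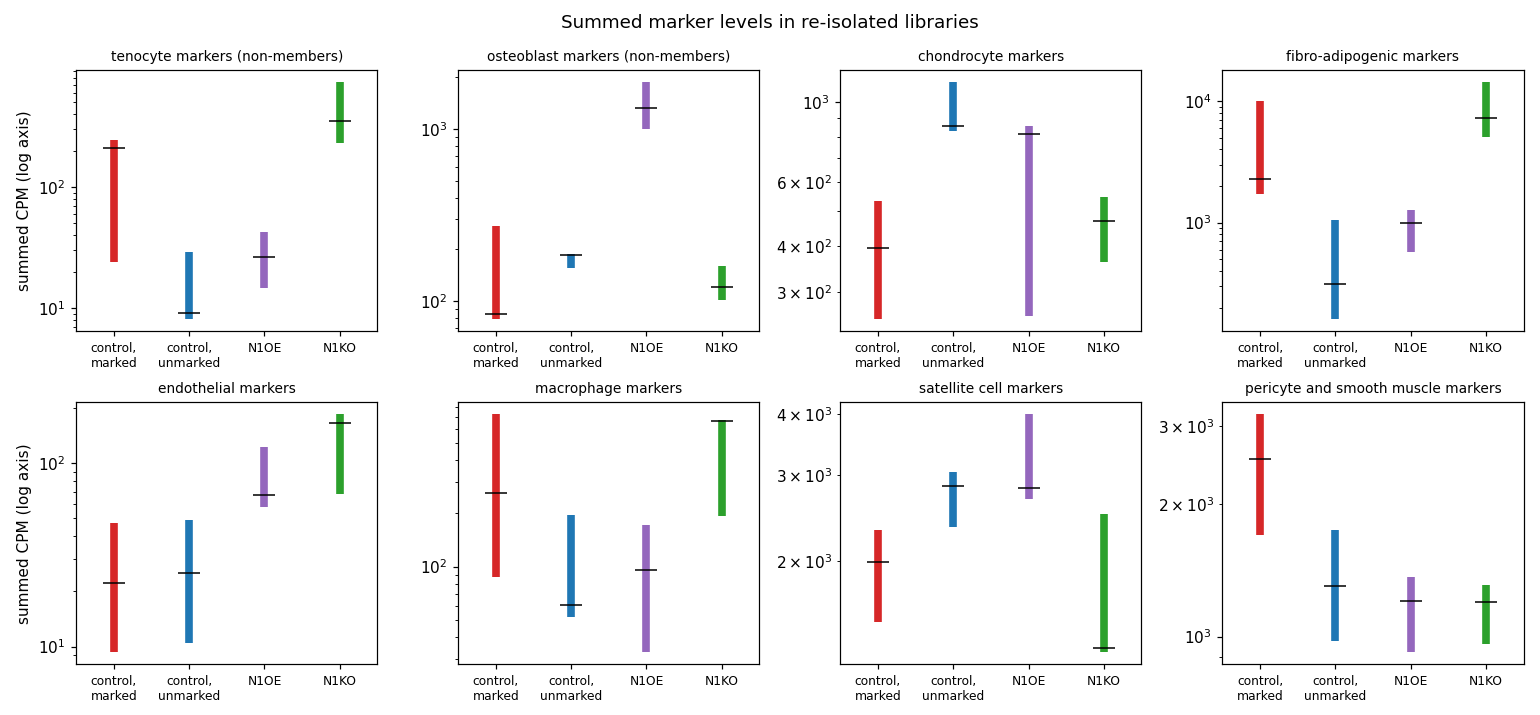
Summed CPM of marker lists (vertical log axis; bars run from the lowest to the highest library and ticks mark medians) in re-isolated marked controls, unmarked controls, N1OE and N1KO. Endothelial sums in N1KO (67.9 to 185 CPM) lie above both control sets, and fibro-adipogenic and tenocyte sums are higher in marked than in unmarked controls.

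The gene whose log2 CPM followed the mean of the members most closely over the 23 libraries was Col1a2 (r = 0.944), followed by Ctsk (0.942), the collagen receptor gene Itga11 (0.928), Slc7a7 (0.924) and Cilp2 (0.922), with Eva1a, Edn1 and Sv2b between 0.914 and 0.919. Taken singly, Itgbl1 was followed most closely by Calhm5 (0.985), Fmod by Itgbl1 (0.979) and Comp by Cilp2 (0.970). These r values describe 23 libraries that differ in kit, group and depth.

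By GENCODE M21 on GRCm38 the genes lie at chr5:104299171-104311469 (Ibsp), chrX:133850980-133865577 (Tnmd), chr8:70373558-70382066 (Comp), chr1:134037254-134048277 (Fmod), chr1:160085029-160153580 (Tnn), chr10:97644068-97682454 (Epyc), chr16:30269302-30283256 (Lrrc15), chr14:123659971-123975618 (Itgbl1) and chr9:7272514-7283331 (Mmp13). Fmod and Tnn share a chromosome but lie far apart.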

How the data were processed

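RNA of 23 libraries was sequenced; groups were taken from sample titles. The submitters' processing notes name Trimmomatic 0.33, FastQC, featureCounts, edgeR and the mm10 genome. Which aligner and annotation were used is not given in the sources used here. In the table the authors deposited log2 CPM values with a small prior count for 21264 genes. Whole reads were recovered from them (100% of low values, tolerance 0.05 reads) and gave the CPM in the text. Per the labels' protocols, the kits were Trizol and TruSeq stranded mRNA for cultured cells, and Buffer RLT, beads, NEBNext low-input cDNA and Nextera XT for re-isolated ones.

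A gene entered a fit if 3 or more of its libraries reached 1 CPM. The deposited log2 values were tested with limma 3.58.1 in R 4.3.3 (eBayes with trend, two-sided, Benjamini-Hochberg adjusted p under 0.05). The 3 re-isolated groups shared 1 fit, and other comparisons had their own. limma-voom on the recovered reads was an alternative. Errors are SE for differences and SD for levels. Intervals are 95% and cover counting error only. The test was checked on simulated data. The members, lists and tests were chosen with earlier results of these data known. Named genes are the members, Notch1, up to 4 genes with the smallest p per list, the 8 genes most like the members' mean, and for each member its most like gene; some of these are given only as counts.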

Additional observations from a re-analysis of the deposited data

Results flagged for a closer look

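Of 28 pairs of a member and a group of 4 to 9 libraries, 7 held a library far from the others of its group by Dixon's criterion, which chance meets in about 1 in 20 groups of untied values. That rate does not apply to 4 of the 7 (Fmod and Itgbl1 in cultured controls, Lrrc15 and Mmp13 in N1OE), where the other 3 libraries are tied at 0 and any read meets it. Ibsp stood at 19.8 CPM in re-isolated control replicate 9, against at most 0.295 CPM in the other controls. Tnmd stood at 0 CPM in re-isolated N1OE replicate 1, against 0.344 to 0.519 CPM in the rest. Cultured control replicate 4 had Fmod at 0.654 CPM and Itgbl1 at 0.0595 CPM, where the other 3 cultured controls had 0. Re-isolated N1OE replicate 3 had Fmod at 35.7 CPM and Mmp13 at 0.859 CPM, and N1OE replicate 1 had Lrrc15 at 1.03 CPM, where the remaining N1OE libraries had 0 for the latter pair of genes. The 0.0595 CPM of Itgbl1 and the Tnmd values in N1OE are at or near counting noise.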

How the results depend on the processing

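Alternatives changed the pseudocount, filter, scaling, test, control set or libraries. Leaving out each replicate in turn gave 1 to 5 lower members in re-isolated N1OE, 2 to 4 between control sets, 6 to 6 between settings, 0 to 1 for the difference of N1OE effects and for cultured N1OE, 0 to 7 list genes, and medians of 3.81 to 5.19 (N1KO minus control) and 6.60 to 8.31 (N1KO minus N1OE). For re-isolated N1OE log2(CPM + 1), no filter and limma-voom each left 2 members; limma-voom left 3 between settings. Sets by description left 0 between control sets. The N1OE difference gained 1 (Itgbl1) under log2(CPM + 1), median ratio scaling and the replicate block. List genes numbered 11 under log2(CPM + 1) and limma-voom, 2 at 5 CPM, 1 in 2 groups alone, 16 with marked and 48 with unmarked controls. The causes were not tested.

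Values that changed sign were Mkx in re-isolated N1OE under the replicate block (0.073), leaving out single libraries (-0.57 to 0.22, the latter without N1OE replicate 4) and with unmarked controls (1.02), where Tnn was 0.15; Mmp13 between control sets without controls 3, 6 or 7 (0.39, 0.0079 and 1.03, in a range from -1.84) or by description (2.22), and Comp without control 9 (-0.14, in a range up to 1.38). Between settings Mkx was 0.36 without cultured control 4 (range from -0.95) and 0.71 with marked controls, and Epyc 0.40 with marked controls (-4.02 with unmarked, a call from which nothing is read). Tnn in the N1OE difference was 0.24 without cultured N1OE replicate 3 (range from -0.72), Thbs3 was -0.52 with marked controls, and Mkx in culture was -0.21 without the libraries whose descriptions have another form.

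With the replicate number as a block, re-isolated N1OE had 5 lower members (Tnmd added, adjusted p = 0.0379) and 3 list genes passed; Dlx5, Hapln1 and Timp2 lost their calls (adjusted p = 0.126, 0.179 and 0.155). Whether the numbers pair libraries is not known. Of 17 same-numbered pairs, r ran from -0.156 to 0.468 and exceeded 0.1 in 2, and single pairs cannot decide it. Without N1OE replicate 1, 2, 3 or 4, Epyc's adjusted p ran from 0.0704 to 0.108, and Mmp13's without 1, 2 or 4 was 0.0991, 0.122 and 0.106; without single controls 1, 3, 4, 6 or 9 (Epyc) and 1, 2, 3, 6 or 9 (Mmp13) it ran from 0.0501 to 0.0596. Members at a few reads per library cannot be resolved at this depth.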
